A study of Mus musculus with 36 samples.

Results

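Tibial bone of saline-treated LMNA G/G mice was compared with wild-type bone across the whole transcriptome. The comparison used the 12 saline-treated and 12 wild-type tibial libraries of the 36 in the series, and the 48911 genes of at least 220 bp among the 56246 in the deposited table. LMNA G/G mice carry both copies of a human bacterial artificial chromosome transgene with the progeria mutation of LMNA, on top of their own mouse Lmna genes, and had been injected with saline at P14 (14 days after birth). Wild-type mice were not treated, so that the injection and the transgene cannot be told apart here. Each group held 6 females and 6 males, all 6 months old. What was sequenced was mainly cortical bone, without epiphyses and with the marrow cleaned out.

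Hutchinson-Gilford progeria syndrome is caused by progerin, a shortened and permanently farnesylated form of lamin A that disturbs the nuclear lamina. Bone is built by osteoblasts, resorbed by osteoclasts and maintained by osteocytes, the former osteoblasts that lie enclosed in the mineralised matrix. A tibia also brings periosteum, vessels, attached muscle and remaining marrow into a bulk RNA sample, so each level below is a sum over these tissues. A lower level of a cell type's genes can come from fewer such cells or from less RNA per cell, which cannot be told apart in bulk samples.

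Wild-type libraries held 63824773 to 86981913 reads on genes (median 73971316) and saline-treated libraries 63764802 to 116206662 (median 79533099.5). Levels are given as scaled TPM, the deposited TPM (transcript abundance corrected for gene length and library total) divided by each library's median ratio over the 22771 genes above 0 in every library. The study describes the mice as littermates, the labels give no litters, and the wild-type mice carry mouse numbers in a format of their own, so any difference in litter or handling cannot be told apart from genotype. Saline replicate 11, wild-type replicate 6 and saline replicate 4 stood furthest from their groups, with array weights (limma's estimate of each library's reliability) of 0.203, 0.329 and 0.458. Mouse Lmna (chromosome 3, 88480147 to 88509956 of GRCm38) lay at 7.47 to 11.8 scaled TPM in wild-type (median 9.61) and at 8.13 to 12.7 in saline-treated bone (median 10.9), and the ranges overlapped. Its log2 difference was 0.15 (SE 0.07, limma with Benjamini-Hochberg adjusted p = 0.065), and transgene reads that align to it cannot be told apart. Without wild-type replicate 6 or saline replicate 4 the adjusted p of Lmna was 0.022 and 0.018, without wild-type replicate 3 or saline replicate 5 it was 0.045 and 0.049.

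Most genes differed between the groups, the greater number of them by a small amount. Of 13201 genes with a mean of at least 0.5 scaled TPM, 8446 (64.0%) had an adjusted p under 0.05, with 4587 higher (34.7%) and 3859 lower (29.2%) in saline-treated bone (limma on log2(scaled TPM + 0.5) with sex as a covariate). An unadjusted p under 0.05 was reached by 8886 genes. The median log2 fold change of all genes tested was 0.022, and on this scale the change of genes with low TPM is understated. Among called genes, 2169 rose and 1589 fell by at least 1.25-fold, 903 rose and 483 fell by at least 1.5-fold, 250 rose and 93 fell by at least 2-fold, and 11 rose and 9 fell by at least 4-fold. The sign was the same in females and males for 8270 of the 8446 genes. These were called from both sexes together, which favours a shared sign. In females alone 4534 of the 8446 were called with the same sign, and in males alone 7063.

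The balance between rises and falls depended on the scaling. Higher genes made up 54.3% of calls with scaled TPM, 24.2% with TPM as deposited (1551 higher and 4857 lower), 22.8% with TPM rescaled to their sum over the longer genes (2012 higher and 6795 lower) and 47.2% after quantile normalization (3922 higher and 4381 lower). With limma-voom on reads recovered from the TPM, also scaled by the median ratio, 54.1% of calls were higher (4543 higher and 3852 lower). Genes of less than 220 bp held 84.7% to 90.4% of the deposited TPM of the 24 libraries. The median of all genes was -0.12 with TPM as deposited and -0.13 with rescaled TPM, and changes are therefore read against the median of all genes. A log2 fold change below is saline-treated minus wild-type. With scaled TPM in both sexes, the counts of each gene list stand against 34.7% of all genes higher and 29.2% lower. Counts under another setting stand against its own totals. These were 1551 higher and 4857 lower of 13721 genes with TPM as deposited, and 2012 and 6795 of 13730 with rescaled TPM. Of 13201 genes they were 2757 and 2262 in females alone and 4213 and 3893 in males alone. With the neutrophil, B cell and erythroid lists as covariates they were 2263 and 1977. A list's counts can thus change with those of all genes.

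**Figure D1:**
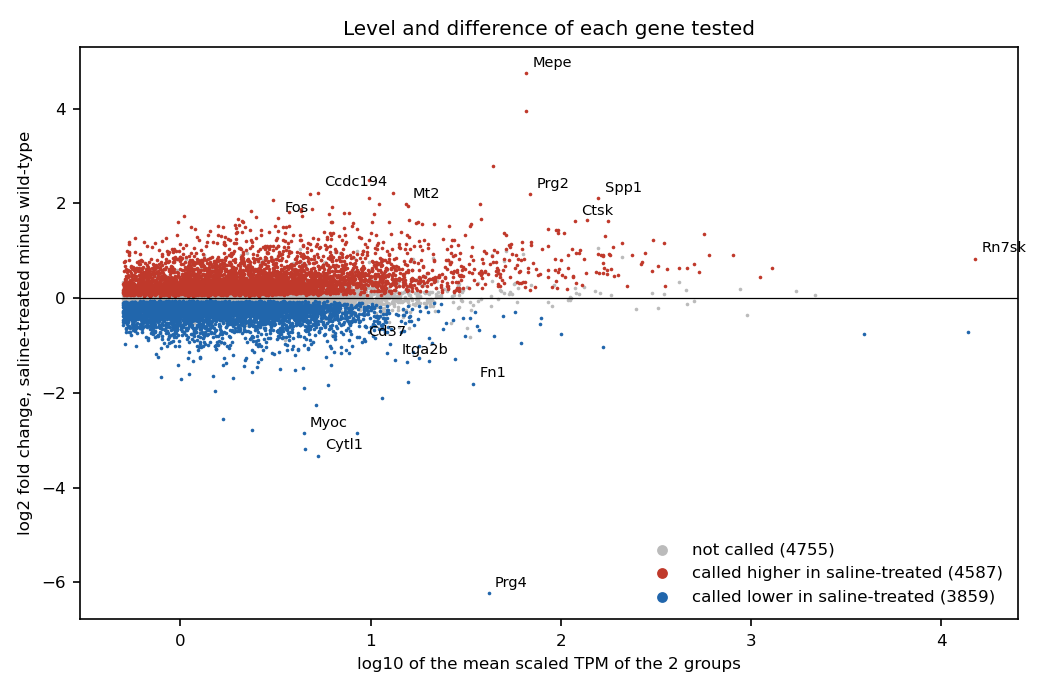
Log2 fold change of each of the 13201 genes tested (saline-treated minus wild-type, vertical axis) against the log10 of the mean scaled TPM of the groups (horizontal axis), with the 4587 higher, 3859 lower and 4755 uncalled genes in separate colours and named genes marked. Calls of both directions run over the whole range of levels, and most lie close to the median of 0.022.

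Complete separation of the 12 saline-treated from the 12 wild-type libraries was seen for 149 higher (5.84%) and 70 lower (2.74%) of 2551 genes. These 2551 had a mean of 5 scaled TPM or more in either group, and the separated genes also passed the threshold. Without wild-type replicate 6 the lower genes numbered 123 and the higher genes 187. Of the separated genes, 8 belonged to the osteocyte, skeletal muscle and cartilage lists and 19 had placeholder symbols. The 15 largest rises and 15 largest falls among the remaining 132 higher and 60 lower genes kept their call under every scaling, in either sex alone and without any single library. They were chosen as called, separated and most changed in these same libraries, which favours such kept calls. With the mean log2 levels of the neutrophil, B cell and erythroid lists as covariates (marrow covariates), 28 of the 30 kept their call, and Tubb1 and Itga2b did not.

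Among the fully separated genes with a mean of at least 5 scaled TPM, the largest rises outside the osteocyte, muscle and cartilage lists were those of genes with diverse roles in bone matrix, metal binding, growth arrest and signalling. Spp1 (chromosome 5, 104435118 to 104441050) encodes osteopontin, an acidic phosphoprotein of mineralised matrix that binds bone cells. Its level was 37.2 to 87.6 scaled TPM in wild-type (median 59.1) and 119 to 376 in saline-treated bone (median 249) (log2 fold change 2.11, SE 0.19, limma adjusted p = 6.5e-09). Every saline-treated library lay above every wild-type library. Cdkn1a (chromosome 17, 29090976 to 29100727) encodes p21, an inhibitor of cyclin-dependent kinases and a p53 target. It lay at 1.06 to 2.59 scaled TPM in wild-type (median 1.59) and 3.84 to 9.19 in saline-treated bone (median 6.61) (log2 fold change 1.73, SE 0.12, adjusted p = 1.2e-10). Fos (chromosome 12, 85473890 to 85477273), a subunit of the AP-1 transcription factor, lay at 0.736 to 1.93 (median 1.20) and 4.12 to 8.80 scaled TPM (median 4.82) (log2 fold change 1.70, SE 0.12, adjusted p = 2.0e-10). For both genes the groups were again fully apart, as the rule for naming them required.

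The largest fold change of these 15 belonged to Ccdc194, a gene named only for its coiled-coil domain, with 0.636 to 2.69 scaled TPM in wild-type (median 1.52) and 5.19 to 11.6 in saline-treated bone (median 9.18). Its log2 fold change was 2.23 (SE 0.16, adjusted p = 2.2e-10). Further rises were those of the cadherin superfamily genes Fat1 (log2 fold change 1.6) and Pcdh7 (1.49), of Ccn4 (1.6), a matricellular protein induced by Wnt signalling, and of Ryk (1.24), a Wnt co-receptor. Id1, a target of bone morphogenetic proteins, rose by a log2 fold change of 1.19, and Insig2, which retains the sterol sensor in the endoplasmic reticulum, by 1.20. Ndrg1, which is induced by hypoxia, rose from a median of 3.34 to 11.3 scaled TPM (log2 fold change 1.48), and S100a11, a calcium-binding protein, from 34.6 to 92.4 (1.19).

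**Figure D2:**
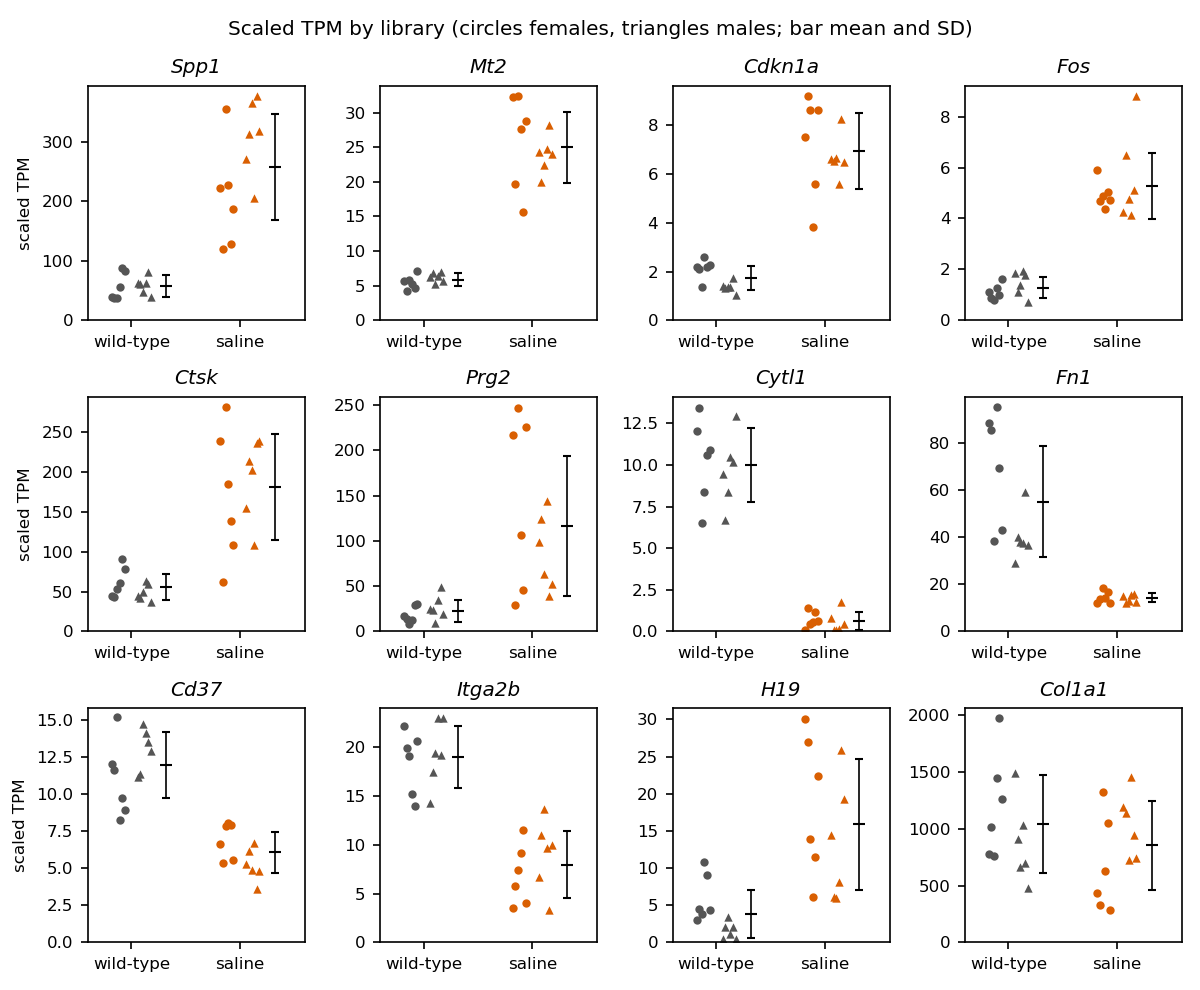
Level of 12 genes in each of the 24 libraries (scaled TPM, linear axis from 0), with females as circles, males as triangles and a bar for the mean and SD of the 12 mice of a group. The groups are fully apart for Spp1, Mt2, Cdkn1a, Fos, Cytl1, Fn1, Cd37 and Itga2b, and overlap for Ctsk, Prg2, H19 and Col1a1.

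Metallothioneins are small cysteine-rich proteins that bind zinc and copper, and their genes are induced by metals through metal response elements and by glucocorticoids. Mt3, Mt2 and Mt1 lie side by side on chromosome 8, and all 3 were among the 15 largest rises. Mt2 (94172664 to 94173568) lay at 4.20 to 7.16 scaled TPM in wild-type (median 5.81) and 15.6 to 32.4 in saline-treated bone (median 24.5) (log2 fold change 1.99, SE 0.11, adjusted p = 7.5e-12). Mt1 (94179082 to 94180327) lay at 2.41 to 3.86 (median 2.99) and 6.6 to 16.4 scaled TPM (median 12) (log2 fold change 1.80, SE 0.11, adjusted p = 4.7e-11). Mt3 (94152607 to 94154146) lay at 1.07 to 2.60 (median 1.51) and 2.96 to 9.21 scaled TPM (median 5.61) (log2 fold change 1.5, SE 0.17, adjusted p = 9.6e-08). None of the 3 genes overlapped between groups, as the rule for the 15 rises required. Their promoters are shown because these neighbours rose together. The letters are the 250 bases before each RefSeq start on GRCm38.p6, plus strand, with matches to the metal response element core (TGCGCNC or TGCACNC, on either strand) in capitals.
Mt1, chr8:94178839-94179088: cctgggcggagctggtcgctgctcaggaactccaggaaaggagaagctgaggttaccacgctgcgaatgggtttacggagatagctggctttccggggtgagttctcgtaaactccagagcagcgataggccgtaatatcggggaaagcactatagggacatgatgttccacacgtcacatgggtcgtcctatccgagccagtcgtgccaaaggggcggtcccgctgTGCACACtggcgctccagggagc
Mt2, chr8:94172368-94172617: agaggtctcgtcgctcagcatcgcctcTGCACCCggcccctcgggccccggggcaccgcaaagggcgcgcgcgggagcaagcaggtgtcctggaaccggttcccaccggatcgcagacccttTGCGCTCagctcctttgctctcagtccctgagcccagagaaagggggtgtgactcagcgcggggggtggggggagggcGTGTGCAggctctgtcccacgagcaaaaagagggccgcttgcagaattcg
Mt3, chr8:94152357-94152606: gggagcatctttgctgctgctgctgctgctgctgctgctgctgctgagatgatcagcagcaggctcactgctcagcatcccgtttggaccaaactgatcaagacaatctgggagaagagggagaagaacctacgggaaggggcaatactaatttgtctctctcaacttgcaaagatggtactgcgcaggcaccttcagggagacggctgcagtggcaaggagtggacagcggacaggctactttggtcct
The window held 1 match in Mt1, 3 in Mt2 and 0 in Mt3. At least 1 match was held by 21.4% of 32851 RefSeq promoter windows of the same length and at least 3 matches by 1.26%. A match is a match of letters and was not tested as a binding site. Bases outside these windows were not searched, so the counts do not cover the whole promoter of a gene.

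The largest falls among the separated genes outside those lists included genes known from joint tissue, B cells and platelets. Cytl1 (chromosome 5, 37735519 to 37739820) encodes a secreted factor made by chondrocytes. Its level was 6.51 to 13.4 scaled TPM in wild-type (median 10.3) and 0.0636 to 1.74 in saline-treated bone (median 0.517) (log2 fold change -3.32, SE 0.21, adjusted p = 6.3e-11). Myoc, a secreted glycoprotein, fell from a median of 7.93 to 0.540 scaled TPM (log2 fold change -2.85), and Cilp, a protein of the cartilage intermediate layer, from 7.21 to 1.42 (-2.25). Fn1 (chromosome 1, 71585520 to 71653200) encodes fibronectin, which cells bind through integrins. It lay at 29.1 to 95.4 scaled TPM in wild-type (median 41.6) and 12.2 to 18.3 in saline-treated bone (median 14) (log2 fold change -1.81, SE 0.16, adjusted p = 3.3e-09). Every saline-treated library lay below every wild-type library for these 4 genes. The mean log2 level of the cartilage list lay at 2.32 to 4.16 in wild-type and 0.404 to 1.3 in saline-treated libraries, with no overlap. Its part in these falls cannot be told apart from the group.

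Cd37, a tetraspanin of B cells, lay at 8.25 to 15.2 scaled TPM in wild-type (median 11.9) and 3.63 to 8.05 in saline-treated bone (median 5.85), and the groups did not overlap (log2 fold change -0.93, SE 0.12, adjusted p = 7.1e-07). The platelet integrin gene Itga2b (chromosome 11, 102453297 to 102470122) lay at 14 to 23.1 (median 19.3) and 3.28 to 13.7 scaled TPM (median 8.31) (log2 fold change -1.3, SE 0.19, adjusted p = 4.5e-06). Tubb1, the tubulin of platelets, fell alongside it by 1.32 on the log2 scale. With the marrow covariates the log2 fold changes of Itga2b and Tubb1 were -0.96 and -0.85 (adjusted p = 0.079 and 0.13), and that of Cd37 was -0.45 (adjusted p = 0.00097). Further falls, with log2 fold changes of -1.10 to -0.92, began with Irf8, a transcription factor of myeloid and B cells (-1.10). The signalling genes Rasgrp2 (-1.06), Map4k1 (-1.01) and Adcy7 (-0.92) fell, as did Ache (-1.03), which encodes acetylcholinesterase. So did the class I gene H2-Q5 (-0.99), annotated as a polymorphic pseudogene, and Mir142hg (-1.03), the host transcript of a blood cell microRNA. With the marrow covariates Map4k1 was at -0.51.

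Bone-forming and bone-resorbing genes rose in the larger number, and the main collagens of bone did not pass the test. Of 14 osteoblast genes tested, 8 rose and 1 fell, with a median log2 fold change of 0.37, and after Spp1 the largest rise was that of Ibsp (1.34), bone sialoprotein. With the marrow covariates 2 rose and 0 fell, and with TPM as deposited 5 rose and 1 fell. Col1a1, the main chain of type I collagen, lay at 478 to 1976 scaled TPM in wild-type (median 963) and 284 to 1453 in saline-treated bone (median 844), with overlapping groups and a log2 difference of -0.35 (SE 0.28, adjusted p = 0.27). The osteoblast median was -0.0060 in females and 0.86 in males, and 5 of the 14 genes had a called interaction of sex and genotype. The fall was that of Smpd3, a sphingomyelinase needed for mineralisation (-0.51, adjusted p = 0.039), which lost its call without wild-type replicate 1, 6, 8, 9 or 12 or saline replicate 1, 2, 4, 6, 9 or 12 (adjusted p = 0.053 to 0.074).

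Of 17 osteoclast genes 12 rose and 2 fell, with a median of 0.70. In females alone 5 rose and 1 fell, in males alone 12 rose and 2 fell, and 1 gene had a called interaction. Ctsk (chromosome 3, 95499256 to 95509362) encodes cathepsin K, the collagen-degrading protease of osteoclasts. It lay at 37.1 to 90.2 scaled TPM in wild-type (median 51.3) and 62.1 to 282 in saline-treated bone (median 193) (log2 fold change 1.63, SE 0.21, adjusted p = 9.4e-07), and the groups overlapped. The proton pump subunit Atp6v0d2 (1.32) and the acid phosphatase Acp5 (1.20) were next. The 2 falls were those of Itgb3, an integrin shared with platelets (-0.65), and Tcirg1, another pump subunit (-0.28), and both lost their call with the marrow covariates, under which 8 genes rose and 0 fell.

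The shares of collagen chain and matrix glycoprotein genes that rose and that fell lay below the 34.7% and 29.2% of all genes. Of 29 collagen chain genes 5 rose and 7 fell. In females alone 1 rose and 12 fell (median -0.56) and in males alone 11 rose and 5 fell (median 0.38). The interaction was called for 12 of the 29, against 11.1% of all genes, and the number of such calls depended on the scaling and on single libraries. Of the 7 falls 4, Col10a1, Col9a2, Col9a3 and Col2a1, were cartilage collagens that are also on the cartilage list. The rises were Col8a1 (log2 fold change 0.93), Col12a1, Col25a1, Col24a1 and Col6a3. Of 22 collagen processing genes 12 rose and 0 fell, led by Plod2 (1.13), the lysyl hydroxylase that makes stable crosslinks, with Lox (0.57) and P4ha1 (0.53) behind it, but with TPM as deposited 3 rose and with the marrow covariates none of the 22 was called. In females alone 4 of the 22 rose (median 0.0058) and in males alone 20 (median 0.57), with 9 called interactions. Tenascin C rose from a median of 26.0 to 56.0 scaled TPM (Tnc, log2 fold change 0.98), along with versican (Vcan, 0.97), periostin (Postn, 0.94), Bgn and Fbln5, whereas Fn1, Tnxb, Thbs1, Thbs3 and Ecm1 fell, giving 5 rises and 5 falls among 21 matrix glycoprotein genes (1 and 6 in females alone, 10 and 2 in males alone). Mmp13, a collagenase of osteoblasts and hypertrophic chondrocytes, rose from a median of 14.6 to 63.4 scaled TPM (1.99). Of the 3 lists left aside here, the osteocyte list had 11 of 11 genes higher (median 1.83, Mepe highest at 4.75) and the cartilage list 9 of 10 lower (median -1.84, Prg4 lowest at -6.23). Of 25 skeletal muscle genes 19 rose and 0 fell (median 1.23), but 5 rose and 1 fell after quantile normalization, and 0 rose and 1 fell in females alone and 24 and 0 in males alone, where limma called the interaction for 0 of the 25 and 22 had an unadjusted p under 0.05.

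Blood lineages did not move together. B cell genes fell in 12 of 14 cases (median -0.73), and their summed level was 39.5 to 92.6 scaled TPM in wild-type and 20.2 to 61.8 in saline-treated libraries. In females alone 5 of the 14 fell (median -0.47) and in males alone 13 (median -1.09). The interaction was called for 1 of them, and 10 had an unadjusted p under 0.05. Genes of megakaryocytes and platelets fell in 11 of 11 cases (median -0.89), from a summed level of 137 to 286 scaled TPM to 43.1 to 205. With the marrow covariates none of the 11 was called, while their median was -0.56. That fit called 4240 of all genes instead of 8446. Its B cell covariate itself differed between groups, with a mean log2 level of 1.92 in wild-type and 1.10 in saline-treated bone. MHC class II genes, which present antigen in B cells, dendritic cells and macrophages, fell in 9 of 9 cases (median -0.70), led by H2-Ob (-1.25) and the class II transactivator Ciita (-1.13), and 4 of them kept the call with the marrow covariates. These 3 lists fell in the same number of genes under each of the other scalings, apart from 13 B cell genes with rescaled TPM.

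Of 16 neutrophil genes 5 rose and 0 fell (12 and 0 with a covariate for skeletal muscle), and S100a8, the most changed, lay at 90.7 to 338 scaled TPM in wild-type (median 168) and 174 to 652 in saline-treated bone (median 436) (log2 fold change 1.24, SE 0.23, adjusted p = 6.5e-05) with overlapping groups. The list's median was 0.83 in females and -0.13 in males, with a called interaction for 3 of the 16 (14 at an unadjusted p under 0.05), and after quantile normalization 1 gene rose, 1 fell and the median lay 0.08 below that of all genes. Erythroid genes showed 0 rises and 2 falls among 12 (Hba-a2 and Epor), with a median of -0.060. Eosinophil genes rose. Prg2 (chromosome 2, 84980461 to 84983632), the major basic protein of their granules, lay at 7.97 to 49.0 scaled TPM in wild-type (median 21.0) and 29.3 to 247 in saline-treated bone (median 102) (log2 fold change 2.20, SE 0.37, adjusted p = 2.2e-05). Epx (1.94), Ear2 (1.78), Prg3 (1.40) and Hdc (0.64) rose with it, Kit fell (-0.51) and the 5 mast cell genes Cpa3, Mcpt4, Cma1, Tpsb2 and Ms4a2 lay below the level needed for testing. With the marrow covariates the log2 fold change of Prg2 was 0.79 (adjusted p = 0.35), and 1 gene of this list kept its call. Macrophage and monocyte genes showed 1 rise (Cd68, 0.92) and 3 falls (Cd163, Cx3cr1 and Ccr2) among 14, and T and NK cell genes 0 rises and 3 falls (Cd2, Ncr1 and Lck) among 8.

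**Figure D3:**
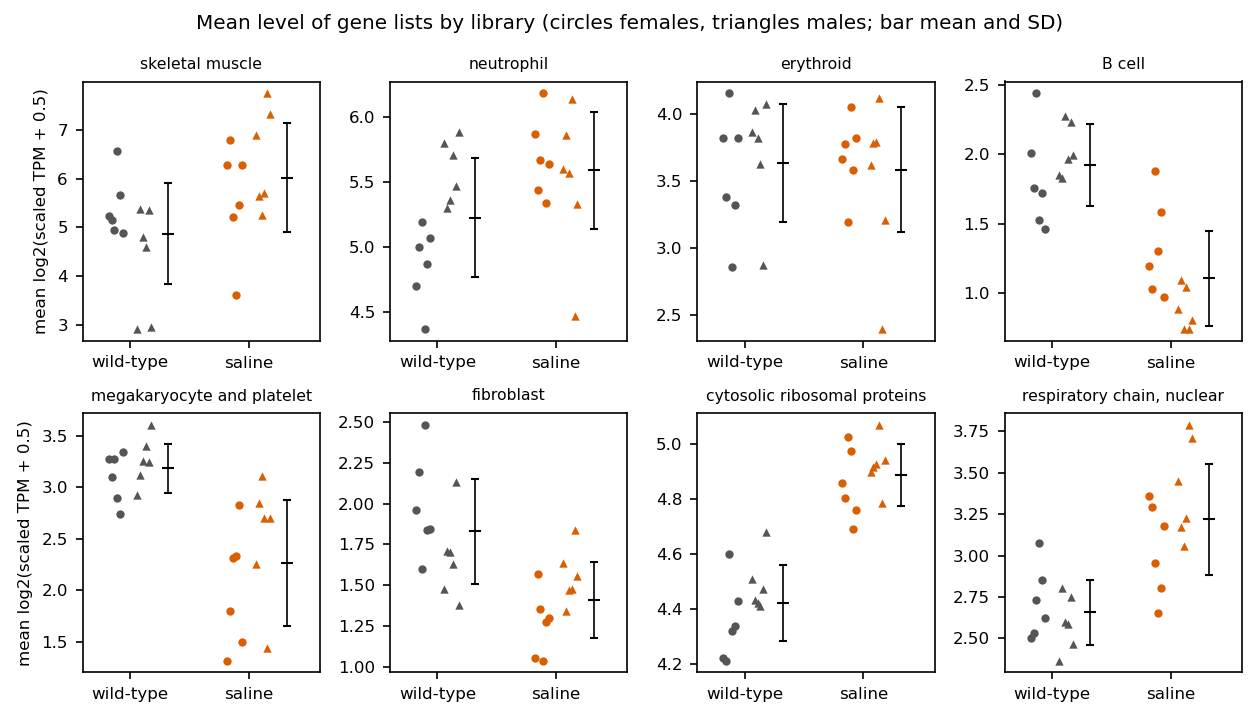
Mean log2 level of 8 gene lists in each of the 24 libraries, with females as circles, males as triangles and a bar for the mean and SD of the 12 mice of a group. The skeletal muscle list ranges from 2.92 to 6.58 in wild-type and from 3.61 to 7.75 in saline-treated libraries, the widest spread of the lists shown, whereas the cytosolic ribosomal protein list lies at 4.21 to 4.68 and 4.69 to 5.07, with no overlap.

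Stromal genes were lower where they mark fibroblasts. Of 17 fibroblast genes 2 rose (Fap and Ogn) and 11 fell, with a median of -0.48. The largest fall was that of Clec3b, a plasminogen-binding protein, from a median of 1.93 to 0.389 scaled TPM (-1.65), followed by the dermatopontin gene Dpt (-1.59). In females alone 0 fibroblast genes rose and 10 fell (median -0.61). In males alone 4 rose and 6 fell (median -0.15), and 7 of the 17 had a called interaction. Marrow stroma genes included 5 rises, Grem1 (0.60), Kitl, Vcam1, Lpl and Foxc1, and 2 falls, Ebf1 (-0.74) and Angpt1, among 11, with 2 rises and 2 falls with TPM as deposited. Tendon genes showed 4 rises, Egr1 (0.93), Col12a1, Scx and Cpxm2, and 3 falls, Cilp, Angptl7 and Cilp2, among 11. In females alone 1 tendon gene rose and 6 fell (median -0.88). In males alone 5 rose and 2 fell (median 0.60), and 4 of the 11 had a called interaction. In adipocyte genes, Fabp4 (0.52) and Pnpla2 rose and Plin1 (-0.71), Cebpa and Lipe fell among 13. Plin1 lost its call without wild-type replicate 6 or 10 or saline replicate 1, 2, 4, 6 or 12 (adjusted p = 0.050 to 0.061). Scd1, the most abundant of them, lay at 13.0 to 87.6 scaled TPM in wild-type (median 38.8) and 5.40 to 51.4 in saline-treated bone (median 25.4), with a log2 difference of -0.82 (adjusted p = 0.054). It was called without wild-type replicate 8 or 11 or saline replicate 3, 5, 7, 8, 10 or 11 (adjusted p = 0.016 to 0.049).

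Of the endothelial genes 7 of 18 rose, led by the junction protein Cdh5 (0.55), and 1 fell, Vwf (-1.01), which endothelium shares with platelets. With TPM as deposited 2 rose and 4 fell, and with rescaled TPM 3 rose and 7 fell, so the direction of this list depended on the scaling, although its median stayed 0.12 to 0.14 above that of all genes. Its 7 of 18 is near the 34.7% of all genes, and with the marrow covariates 0 rose and 1 fell. Vascular smooth muscle and pericyte genes included 2 rises, Cspg4 (0.84) and Abcc9, and 1 fall, Smtn (-0.21), among 12. Only 5 of 14 Schwann cell genes were high enough to test, of which 1, Mbp, fell (-0.43).

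Genes of the stress response to glucocorticoids and metals rose as a group, with 13 of 13 higher and a median of 0.88. Next to the metallothioneins, Ddit4, an inhibitor of the growth kinase mTORC1, rose from a median of 5.66 to 25.4 scaled TPM (log2 fold change 1.94, SE 0.20, adjusted p = 4.8e-08), and Pdk4, which limits pyruvate oxidation, by 1.79. With the marrow covariates 9 of the 13 stayed called. Of 19 immediate early genes 14 rose and 1 fell (median 0.40), with Egr3 (1.51), Ccn1 (1.46) and Dusp1 (1.04) behind Fos. The fall was that of Btg2 (-0.30, adjusted p = 0.030), which lost its call without wild-type replicate 2, 5 or 11 or saline replicate 11 (adjusted p = 0.054 to 0.056). Clock genes included 9 rises and 0 falls among 16, with Per1 highest (0.98), which is also a glucocorticoid target, and 5 rises with TPM as deposited.

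Other stress lists rose in part. p53 targets included 11 rises, led by Cdkn1a, Phlda3 (1.0) and Ccng1 (0.92), and 2 falls (Btg2 and Sesn1) among 15, with a median of 0.15, but 4 rises and 2 falls and a median of -0.0030 with TPM as deposited, and 6 and 3 with rescaled TPM. The p53 list's median lay 0.13 above that of all genes with scaled TPM and 0.12 above it with either of the others. Heat shock genes showed 9 rises and 0 falls among 12, led by the small heat shock proteins Cryab (1.61) and Hspb1 (1.31), which muscle also expresses, and the log2 fold change of Cryab was 0.66 with a covariate for skeletal muscle. Of 12 hypoxia genes 8 rose and 0 fell (median 0.33), and of 15 antioxidant targets of NRF2 7 rose, led by Gstm1 (0.55), and 1 fell, Gclc (-0.31), with 1 rise and 1 fall with TPM as deposited. Endoplasmic reticulum chaperones included 12 rises, led by Dnajb9 (0.38), and 2 falls (Syvn1, -0.55, and Edem1) among 21. There were 1 rise and 3 falls with TPM as deposited and 1 and 6 with rescaled TPM. The list's median lay 0.09 above that of all genes with scaled TPM and 0.06 above it with each of the other 2. Amino acid response genes showed 6 rises and 0 falls among 12. With TPM as deposited the heat shock list held 5 rises, the hypoxia list 4 rises and 1 fall, and the amino acid response list 3 rises.

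Senescence and secreted inflammatory genes were mixed. Of 11 tested 5 rose, Mmp13, Il1b (1.22) and Timp1 (1.03) among them, and 3 fell, Tnf (-0.86), Igfbp5 and Plau. Tnf, the gene of tumour necrosis factor, lay at 0.655 to 1.77 scaled TPM in wild-type (median 1.24) and 0.273 to 0.620 in saline-treated bone (median 0.390), and the groups did not overlap. Cdkn2a, Cdkn2b and Il6 were below the level needed for testing. Interferon response genes showed 6 rises and 4 falls among 18 (2 and 6 with TPM as deposited), acute phase genes 7 rises, led by Socs3 (0.99), and 1 fall (Lbp) among 12, complement genes 2 rises and 3 falls (C4b, -0.64, Cd55 and Clu) among 12, and MHC class I genes 1 rise (B2m, 0.54, -0.031 after quantile normalization) and 4 falls (Nlrc5, Tap1, Tap2 and Psmb9) among 10.

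Among growth factor pathways, TGF-beta genes included 11 rises and 3 falls of 20, with a median of 0.31, and 7 rises and 3 falls with TPM as deposited. The ligand Tgfb2 lay at 0.340 to 1.42 scaled TPM in wild-type (median 0.743) and 2.45 to 5.45 in saline-treated bone (median 4.11) (log2 fold change 1.84, SE 0.13, adjusted p = 2.9e-10), and the groups were fully apart. Tgfb3 (0.66), the latency protein Ltbp1 (0.70) and the receptor Tgfbr1 (0.43) also rose, while Lrrc32, Ltbp2 and Tgfb1 fell. The fall of Tgfb1 (-0.17, adjusted p = 0.043) lost its call without wild-type replicate 3, 4, 5, 7, 8, 10, 11 or 12 or saline replicate 1, 2, 6, 7, 11 or 12 (adjusted p = 0.056 to 0.081). In the IGF axis 7 of 15 genes rose, led by Stc2 (0.74), an inhibitor of a binding protein protease, and 3 fell (Igfbp6, -1.05, Igfbp5 and Igf1r), with 3 and 3 with TPM as deposited. Notch genes showed 5 rises, led by Jag2 (0.61) and Hes1 (0.56), and 3 falls (Lfng, Notch1 and Notch2) among 14. With TPM as deposited there were 2 rises and 5 falls, beside 1551 higher and 4857 lower of 13721 genes in all. The list's median lay 0.06 above that of all genes with scaled TPM and 0.08 above it with TPM as deposited. H19, an imprinted growth-restraining RNA (chromosome 7, 142575529 to 142578143), lay at 0.396 to 10.8 scaled TPM in wild-type (median 3.28) and 5.93 to 30.0 in saline-treated bone (median 14.2) (log2 fold change 2.11, SE 0.33, adjusted p = 1.1e-05) that was 1.28 with a covariate for skeletal muscle. Of 5 imprinted growth genes tested, Grb10, Cdkn1c and Plagl1 also rose. Of 10 Hox genes 4 rose, led by Hoxc10 (0.72), and 2 fell, Hoxb4 (-0.49) and Hoxa6, with 1 rise and 3 falls with TPM as deposited.

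**Figure D4:**
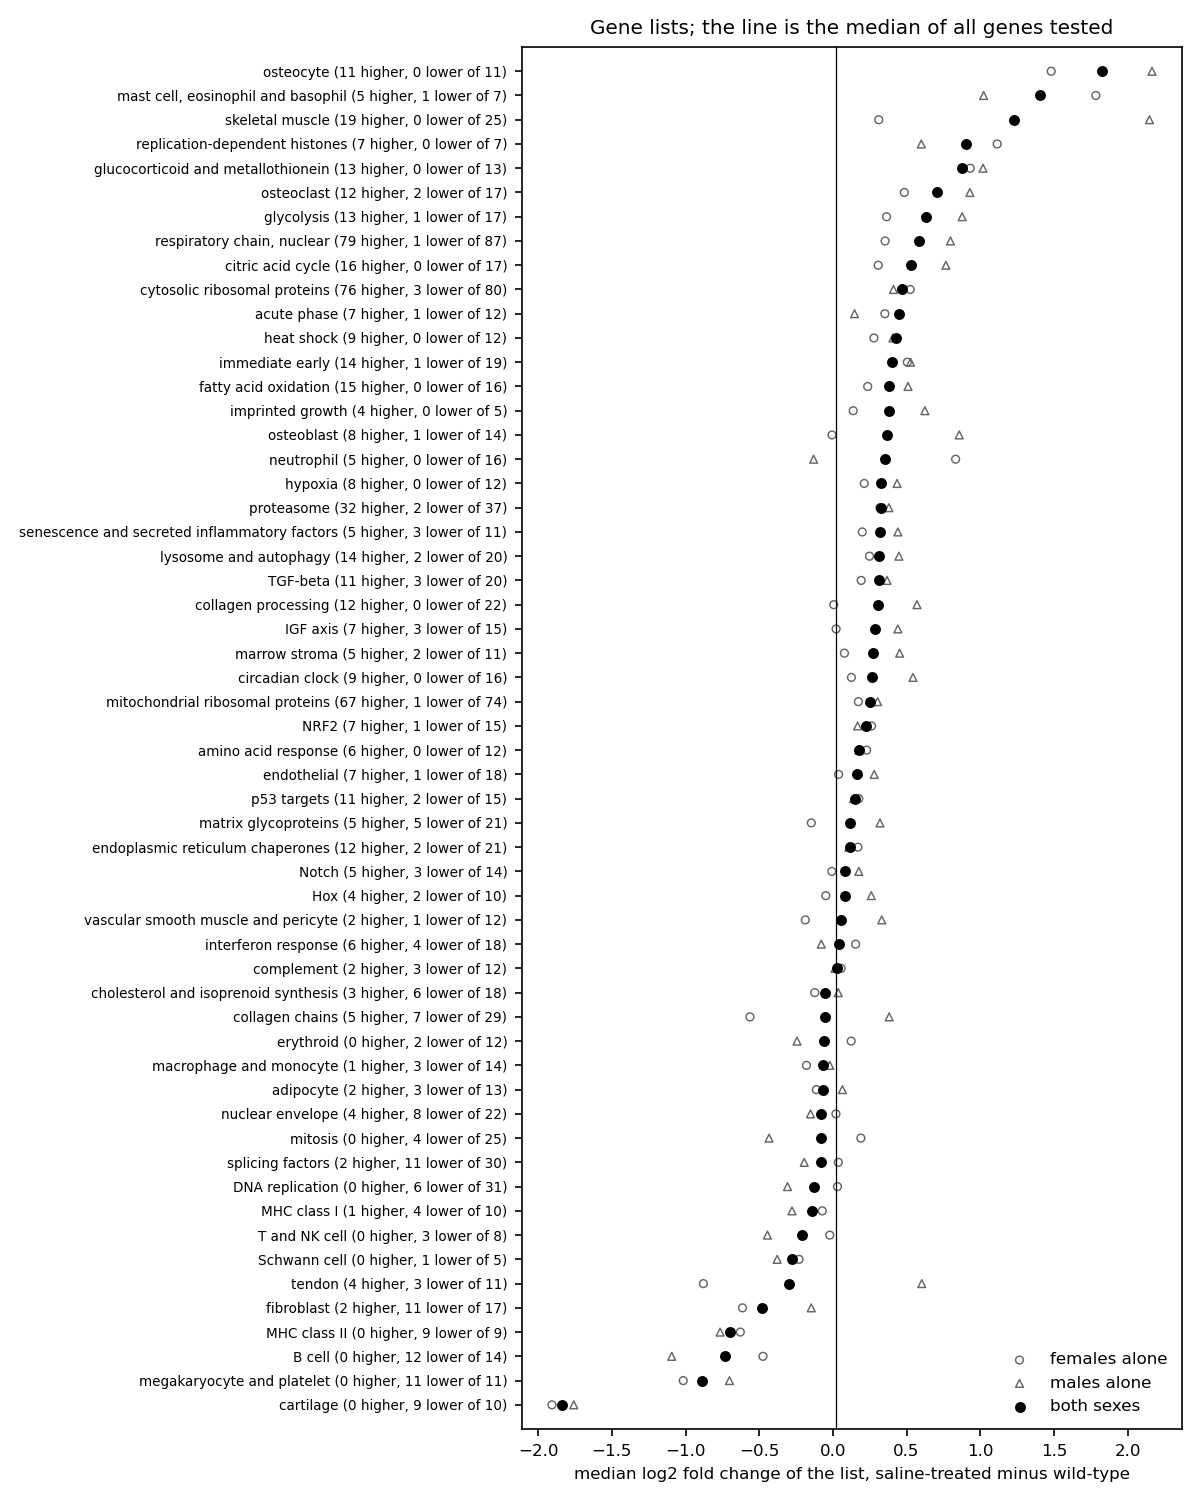
Median log2 fold change (saline-treated minus wild-type) of 56 gene lists over both sexes (filled symbols) and in females and males alone (open symbols), with the number of genes tested, higher and lower beside each list and a line at the median of all genes (0.022). Of the 56 lists, 38 have a median above that line, the osteocyte list the highest at 1.83 and the cartilage list the lowest at -1.84.

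Genes of the ribosome and of mitochondria rose almost throughout, by small amounts. Of 80 cytosolic ribosomal protein genes 76 rose and 3 fell, with a median of 0.47, and the mean log2 level of the list did not overlap between groups. Rplp1, the most abundant, lay at 197 to 296 scaled TPM in wild-type (median 240) and 291 to 444 in saline-treated bone (median 370) (log2 fold change 0.57, SE 0.07, adjusted p = 9.0e-07), but -0.013 after quantile normalization. With TPM as deposited 37 rose and 3 fell, with rescaled TPM 54 and 4, and after quantile normalization 40 and 20. Rps10 (-0.69) and Rpl13a (-0.37) were among the falls. Ribosomal protein genes have many near-identical pseudogene copies, of which 54 of 81 tested rose and 2 fell, and how shared reads bear on the rises and falls of the list was not tested. The largest rise, that of the muscle paralog Rpl3l (1.08, adjusted p = 0.026), was -0.0068 with a covariate for skeletal muscle, and lost its call without wild-type replicate 1 or 11 or saline replicate 11 or 12 (adjusted p = 0.050 to 0.051). Proteasome genes included 32 rises and 2 falls among 37 (median 0.33), the largest being Psmb2 (0.58), and the falls were those of the immunoproteasome subunit Psmb9 (-0.40) and of Psmd9. The lysosome and autophagy list held 14 rises, led by Gaa (0.70), and 2 falls (Mcoln1 and Tfeb) among 20. With TPM as deposited 11 proteasome genes rose and 2 fell, and 4 lysosome and autophagy genes rose and 2 fell.

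Of 87 nuclear genes of the respiratory chain 79 rose and 1 fell (Cox6b2, -0.39), with a median of 0.59, which was 0.35 in females and 0.80 in males. With a covariate for skeletal muscle 74 rose and 3 fell, with a median of 0.33, and with the muscle and marrow lists together 8 rose and 2 fell. Cox6a2, the muscle form of a cytochrome oxidase subunit and the largest rise (1.24), had a log2 fold change of 0.03 with the muscle covariate (adjusted p = 0.84). Mitochondrial ribosomal protein genes showed 67 rises and 1 fall (Mrpl33) among 74 (median 0.25), but 10 rises and 1 fall with TPM as deposited. Their median lay 0.23 above that of all genes with either. In the citric acid cycle 16 of 17 genes rose (median 0.53), in fatty acid oxidation 15 of 16 (median 0.38), and in glycolysis 13 of 17, with 1 fall, Pfkp (median 0.63). With TPM as deposited 12, 3 and 6 rose, and in females alone 4 of each list. With the muscle and marrow lists together these numbers were 0, 0 and 2 rises. Aldoa, a glycolytic enzyme abundant in muscle, had a log2 fold change of 1.17, and of 0.24 with the muscle covariate. The 12 mitochondrial genome transcripts are listed at 0 in every library and were not tested. Cholesterol and isoprenoid genes, by contrast, included 3 small rises (Pmvk, Acat2 and Ggps1) and 6 falls, Srebf2 (-0.35), which activates the pathway, among them, of 18, and with TPM as deposited 0 rises and 9 falls, Pmvk being at -0.015.

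Genes of the nucleus changed by small amounts. Of 22 nuclear envelope genes 4 rose, Emd (0.34), Tor1aip1, Fnta and Banf1, and 8 fell, led by the linker protein Syne3 (-0.31), with a median of -0.079, set against 34.7% higher and 29.2% lower among all genes. Emd, which encodes emerin, a lamin-binding protein of the inner membrane, lay at 1.75 to 2.55 scaled TPM in wild-type (median 2.14) and 2.43 to 3.25 in saline-treated bone (median 2.84). With TPM as deposited 0 rose and 11 fell. Splicing factor genes showed 2 rises (Hnrnpab, 0.25, and Hnrnpk) and 11 falls among 30, DNA replication genes 0 rises and 6 falls among 31, led by Pold1 (-0.55), and mitosis genes 0 rises and 4 falls among 25 (Aurkb, -0.45, Cenpa, Cenpe and Kif23). Hnrnpab was at -0.010 after quantile normalization. The proliferation marker Mki67 did not pass the test (-0.08, adjusted p = 0.69). With the muscle covariate the splicing list held 8 rises and 7 falls, the replication list 6 and 2, and the mitosis list 6 and 0, so their direction depended on that covariate. In females alone the replication list held 2 rises and 2 falls (median 0.031) and the mitosis list 2 and 0 (median 0.19), and in males alone each held 0 rises and 9 falls (medians -0.31 and -0.43), and limma called the interaction for 0 genes of either list, with an unadjusted p under 0.05 for 7 of the 31 replication and 17 of the 25 mitosis genes. The splicing list held 6 rises and 0 falls in females alone and 0 and 14 in males alone, with 1 called interaction. Replication-dependent histone genes rose in 7 of 7 cases (median 0.90), led by Hist1h2bp (1.05). Their main transcripts carry no poly(A) tail and the libraries were selected for poly(A), and near-identical copies share reads, so these values are uncertain.

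The type and length of a gene moved with its direction with scaled TPM. The shares by type, length, level and chromosome were calculated with that scaling alone, and the balance of all calls depended on the scaling. Of 10973 protein-coding genes 36.9% were higher and 27.0% lower, and of 833 processed pseudogenes 42.1% and 19.4%, whereas of 599 lncRNA genes 12.5% were higher and 60.4% lower (median -0.23) and of 436 genes of the class TEC (predicted transcripts without experimental proof) 9.63% and 66.3% (median -0.24). With protein-coding genes divided into 4 equal classes of length, those of 237 to 2789 bp were higher in 51.9% and lower in 15.9% of cases, and those of 6853 to 117334 bp in 28.0% and 32.6%. Without the cytosolic and mitochondrial ribosomal, respiratory chain, proteasome and histone families the shortest class still held 48.8% higher and 16.9% lower. With all genes divided into 4 equal classes of mean level, 28.1% were higher among the lowest and 43.4% among the highest genes.

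On the X chromosome 195 of 370 genes tested were higher (52.7%) and 55 lower (14.9%), with a median of 0.12, in females 0.15 and in males 0.11. On the autosomes 28.4% to 43.4% were higher, with chromosomes 18, 13 and 3 next after X. Of the 19 genes with placeholder symbols whose groups did not overlap, 11 were higher and 8 lower. Among the higher ones, Gm28661, Gm28437 and Gm10925 shared 100% of their words of 31 bases with mitochondrial transcripts and Gm29216 97.2%, while Gm13341 and Gm13340 shared 48.0% and 45.2%. These 6 pseudogenes rose by log2 fold changes of 1.25 to 1.62, and reads of the mitochondrial genome that align to them cannot be told apart from their own.

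**Figure D5:**
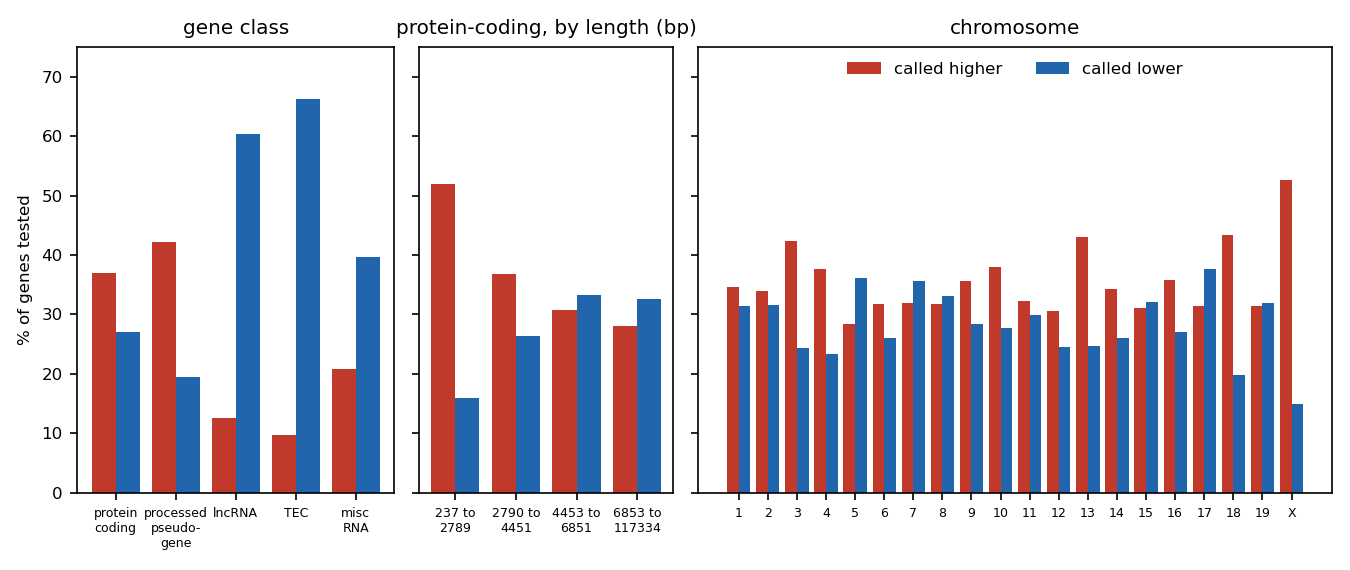
Share of tested genes called higher and lower with scaled TPM (percent, bars from 0) by gene class, by length class of protein-coding genes, and by chromosome. lncRNA and TEC genes are mostly lower (60.4% and 66.3%), the shortest protein-coding genes mostly higher (51.9%), and the X chromosome has the highest share of higher genes (52.7%).

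Among genes of at least 220 bp, the highest scaled TPM were those of RNAs that poly(A) selection should mostly remove, on a scale that inflates short genes. Rn7sk, a small nuclear RNA that restrains transcription elongation, lay at 9038 to 13185 scaled TPM in wild-type (median 10749) and 14394 to 25065 in saline-treated bone (median 19328) (log2 fold change 0.84, SE 0.08, adjusted p = 2.6e-08), and the groups were fully apart. Gm26917 lay at 13323 to 25863 (median 15576) and 6898 to 15619 scaled TPM (median 8639) (log2 fold change -0.72, SE 0.13, adjusted p = 6.2e-05), and Gm42418 at 3591 to 7676 (median 4639) and 2201 to 4307 (median 2626) (log2 fold change -0.75, SE 0.11, adjusted p = 4.7e-06). Gm24514, Gm26461 and Rn7s1 did not pass the test (0.07, 0.16 and 0.18). The histones H4c12 (0.63) and H4c6 (0.45) rose, H4c6 with an adjusted p of 0.050 without wild-type replicate 4 or 6, and S100a9, a calcium-binding protein of neutrophils, rose from a median of 544 to 1076 scaled TPM (0.92).

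Females alone gave 5019 called genes and males alone 8106, of which 3667 were shared, 3622 of them with the same sign. The interaction of sex and genotype was called for 1463 genes (11.1%), 570 with a larger value in males and 893 with a larger value in females, and 4720 had an unadjusted p under 0.05. The skeletal muscle list had a median of 0.31 in females and 2.15 in males, and its summed level ranged from 288 to 4213 scaled TPM in wild-type and from 484 to 10860 in saline-treated libraries. With that list as a covariate 1 gene was called, with the marrow covariates 2, and with TPM as deposited 0. Without wild-type replicate 6 the number was 228 and without wild-type replicate 10 it was 3261.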

How the data were processed

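Bulk RNA from 36 tibiae was sequenced as stranded, poly(A)-selected, paired-end libraries. The authors aligned the reads to GRCm38 with STAR (2.73a in the submitters' processing notes), used QoRTs to count them per GENCODE gene, and deposited TPM for 56246 genes, and how TPM were calculated is not given in the sources used here. Within each library the deposited TPM above 0 are whole reads (100% of values, tolerance 0.01) divided by gene length less a fixed offset of 218 bp, so short genes are inflated, and the 7335 genes of less than 220 bp were left out. Reads recovered in this way gave the depth and an alternative with limma-voom.

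Each library was divided by its median ratio over the 22771 genes above 0 in all 36 libraries. Log2(scaled TPM + 0.5) of genes with a mean of at least 0.5 was fitted with limma (trend, sex as a covariate, 24 libraries), with calls at a Benjamini-Hochberg adjusted p of 0.05, and the sex difference was an interaction term. The fit was tested on simulated data. Of 57 gene lists 56 held tested genes and are described by counts and medians. The genes compared and the lists were chosen with earlier results of these data known. Named are the 15 largest rises and falls among called genes with a mean of at least 5 that do not overlap between groups, outside the osteocyte, skeletal muscle and cartilage lists and placeholder symbols, the largest rise, largest fall and most abundant member of each list, the 5 lowest interaction p-values, the 10 most abundant genes and Lmna. Further members given where a list had few calls or to show a list's next genes, and the 6 mitochondrial-like pseudogenes, were chosen after their values were seen. Groups and sexes come from the labels, and 0 pairs of libraries were identical. Coordinates are those of GENCODE vM21, matched for 47338 of 48911 genes, and promoters are from RefSeq, present for 23 of the 30 genes named by size of change. Where a symbol repeats (573 symbols), the gene of highest mean stands for it. Reads shared by near-identical copies are divided in a way not given in the sources used here. The covariates for cell composition are mean log2 levels of the lists, and 2 of these alternatives were added after the data were seen. The human transgene was not analysed here, and a few of the genes so named are not reported here. Tools were R 4.3.3, limma 3.58.1, Python 3.11.15, numpy 2.4.6, pandas 2.3.3 and matplotlib 3.10.9.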

Additional observations from a re-analysis of the deposited data

Results flagged for a closer look

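The difference between saline-treated and wild-type bone itself differed between females and males in a test of the interaction, which called 1463 of 13201 genes (limma with Benjamini-Hochberg adjustment). The 5 genes with the lowest adjusted p (0.021 for each) were Gm42462, with a log2 fold change of 0.20 in females and -0.39 in males (male minus female -0.586), Gm4759 with -0.33 and -1.01 (-0.685), Srgap3 with -0.058 and 0.52 (0.581), Ankrd12 with 0.11 and -0.17 (-0.281) and Slc39a3 with -0.15 and 0.13 (0.285). All lay under 3 scaled TPM in every library.

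The number of interaction calls moved by more than 1.5 times without any of 17 of the 24 libraries. It was 574, 2284, 228, 581, 428, 377, 3261, 380 and 747 without wild-type replicates 1, 5, 6, 7, 8, 9, 10, 11 and 12. It was 515, 281, 832, 751, 880, 2750, 415 and 511 without saline replicates 1, 4, 6, 7, 9, 10, 11 and 12. With a covariate for skeletal muscle 1 gene was called, and the part of muscle in the interaction was not tested further.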

How the results depend on the processing

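No paired analysis was possible because the labels give no replicate numbers that the groups share. Calls numbered 14095 without a filter (7035 higher, 7060 lower), 1473 at a mean of 5 (1036 and 437) and 5019 in females alone (2757 and 2262). They numbered 4240 (2263 and 1977) with the neutrophil, B cell and erythroid lists as covariates, 2693 (1350 and 1343) with skeletal muscle added, and 2953 (1404 and 1549) with the cartilage list, the last 2 added after the data were seen. The cartilage list does not overlap between groups, so that fit cannot separate it from genotype, and under it S100a11, Cilp, Tubb1 and Itga2b lost their calls. Higher calls were 1551 with TPM as deposited and 2012 with rescaled TPM, which gave 6795 lower calls. Interaction calls were 394 without a filter, 87 at a mean of 5, 0 with TPM as deposited, 410 with 36 libraries, 887 with array weights, 1 with muscle, 2 with the 3 marrow lists, 96 with all 4 lists and 0 with cartilage. Genes with no overlap numbered 63 with TPM as deposited, 367 with rescaled TPM, 447 in females and 981 in males.

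Leaving out 1 library gave 8116 to 8852 calls, 4380 to 4716 higher, 3701 to 4136 lower, 216 to 310 with no overlap and 228 to 3261 interaction calls. Of 163 named genes, 13 changed their call without some library. Reversed signs are listed only for named genes called with scaled TPM in both sexes, in the alternative, or in both. Genes called in neither are left out, such as Col1a1 (-0.35, and 0.28 in males alone). Signs reversed for Pmvk with TPM as deposited (-0.0149) or rescaled (-0.0253). After quantile normalization they did for Lyz2 (-0.574), B2m (-0.0314), Calr (-0.00271), Ctsb (-0.0308), Rplp1 (-0.0134) and Hnrnpab (-0.0103). In females alone they did for Ccn2 (-0.0673), Cox6a2 (-0.00411), Gm42462 (0.201) and Srgap3 (-0.0577), and in males alone for Slc39a3 (0.134). With muscle they did for Cox8b (-0.275) and Rpl3l (-0.00678), with the marrow lists for Plin1 (0.478) and Cd79b (0.238). With all 4 lists they did for Plin1 (0.608), Lyz2 (-0.376), Cd79b (0.248), Tgfb1 (0.105), Cox6a2 (-0.501), Cox8b (-0.69) and Rpl3l (-0.407). With cartilage they did for Smpd3 (1.24), Plin1 (0.155), Smtn (0.102), Isg15 (-0.347), Hist1h4m (-0.167), H4c12 (-0.249) and H4c6 (-0.334). The cause of these changes was not tested. Limits are the separate number format of the wild-type mice, with no litters in the labels, low genes near 0.5 scaled TPM, and genes with near-identical copies.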
